A study of Mus musculus with 4 samples.

Results

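The GIMAP genes encode GTPases of the immunity-associated protein family. Member rows were taken by gene symbol and RefSeq accession, and all 8 mouse genes asked for (Gimap1, Gimap3, Gimap4, Gimap5, Gimap6, Gimap7, Gimap8 and Gimap9) were found among 21025 rows. The files held 8 rows with a GIMAP symbol but only 7 different symbols, because 2 rows were both called GIMAP5 and 0 rows were called GIMAP1. The accessions of one of these 2 rows belong to Gimap1 in RefSeq, and the gene length worked out from its values, 1508 bases, is close to the 1493 bases annotated for Gimap1. The other GIMAP5 row had a length of 1946 bases, against 1953 annotated for Gimap5. The rows are called Gimap1 and Gimap5 accordingly.

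RNA came from natural killer (NK) cells of the livers of C57BL/6 mice, with no other allele or treatment named, in 4 libraries. TRAIL+ cells (2 libraries) were sorted as positive for the death ligand TRAIL and negative for the integrin CD49b, and CD49b+ cells (2 libraries) as the reverse. All cells were gated as carrying NK1.1 and NKp46 and lacking TCR beta, a chain of the T-cell receptor. The labels give neither age, sex nor whether animals were pooled. The series title places the work in a study of the transcription factor Nfil3 in NK cell development. The gate genes followed the labels: Tnfsf10 (TRAIL) had 208 and 189 RPKM in TRAIL+ cells, against 7.26 and 6.94 RPKM in CD49b+ cells, and Itga2 (CD49b) had 5.26 and 1.55 RPKM in TRAIL+ cells, against 52.1 and 37.0 RPKM in CD49b+ cells. Klrb1c (NK1.1) and Ncr1 (NKp46) stood between 901 and 1253 RPKM in all libraries. RPKM scales reads to gene length and to the size of the library, so levels of different genes are compared per length.

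GIMAP proteins share a guanine-nucleotide-binding domain and several sit on membranes inside the cell. They are made mainly in lymphocytes and are encoded side by side in one cluster. The family is best known for lymphocyte survival: rats and mice without functional Gimap5 lose T cells, and such mice also lack NK cells. In bulk RNA a lower level can mean fewer expressing cells or less RNA per cell, and these cannot be told apart.

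GIMAP RNA was more abundant in TRAIL+ cells. The RPKM summed over the 8 genes was 3989 and 4599 in the TRAIL+ libraries, against 2176 and 2449 in the CD49b+ libraries. Mean sums of 4294 ± 432 RPKM for TRAIL+ and 2313 ± 193 RPKM for CD49b+ (SD, n = 2 libraries each) gave a 1.86-fold difference, and the groups did not overlap. The genes took 0.732% and 0.824% of the reads of the TRAIL+ libraries and 0.407% and 0.447% of those of the CD49b+ libraries. The 95% Wilson intervals of these shares were 0.723% to 0.740% and 0.815% to 0.833% in TRAIL+ cells, and 0.401% to 0.413% and 0.441% to 0.454% in CD49b+ cells. They cover counting error only, and the reads behind them were worked out from the RPKM values.

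The size of the change differed between members, which were not tested against each other. Gimap4 weighed most in the sum, with means of 1431 RPKM in TRAIL+ cells and 741 RPKM in CD49b+ cells. A call for a member does not measure its part in the summed difference. Gimap7 and Gimap3 rose in TRAIL+ cells (limma on log2(RPKM + 1), Benjamini-Hochberg adjusted p threshold 0.05 over 10047 genes), 2 of 8 members, against 4.76% of all tested genes higher in TRAIL+ cells and 8.62% changed in either direction. No member was called lower (0 of 8, against 3.86% of all tested genes), also by limma voom on recovered reads. At an unadjusted p under 0.05, 0 members had a negative change, against 889 of the 10047 tested genes. Gimap4 and Gimap6 had the next largest log2 fold changes and missed the threshold. TRAIL+ libraries were above both CD49b+ libraries in 6 of 8 members, against 24.9% of tested genes (46.8% did not overlap in either direction). The median log2 fold change was 0.64 over the 8 members and 0.00 over all tested genes. Among 807 tested genes at least as abundant as the least abundant member, 40 were higher (4.96%) and the median was 0.01. No label says whether replicates are different animals. The p-values therefore speak only of the spread among these libraries, which may be technical.

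**Figure D1:**
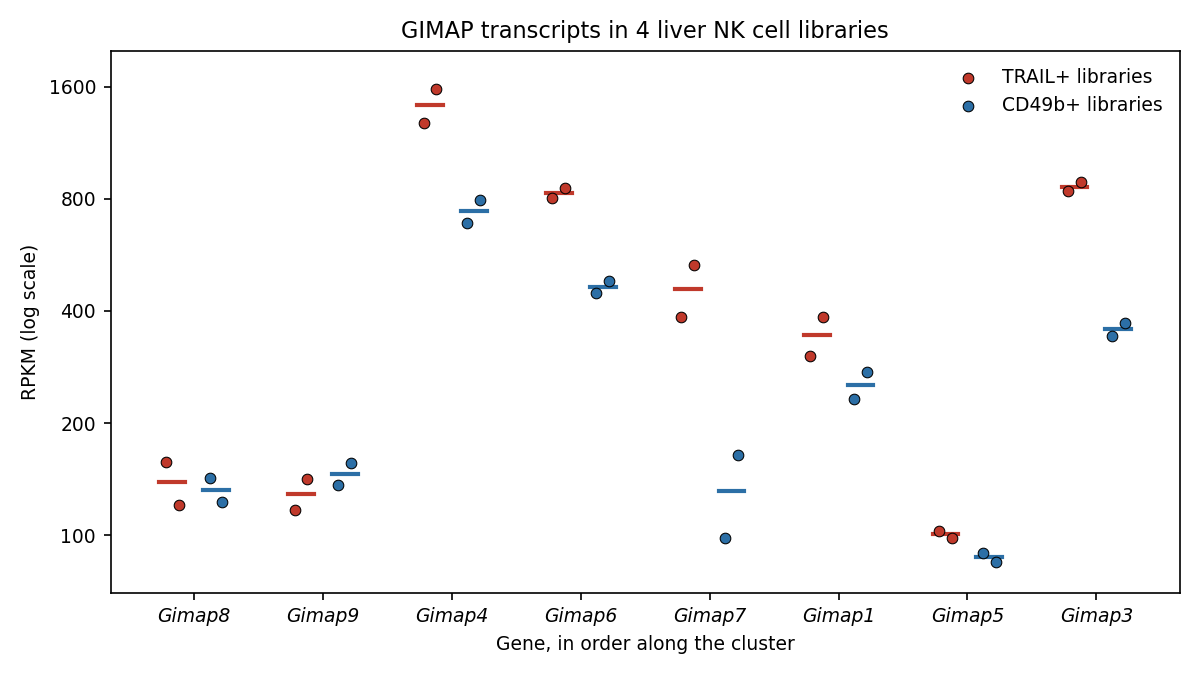
RPKM (log axis) of the 8 GIMAP genes, in their order along the cluster, in TRAIL+ (left, red) and CD49b+ (right, blue) libraries, with a point per library and a line at the group mean. The TRAIL+ points lie above the CD49b+ points for 6 genes, widest apart for Gimap7, and overlap them for Gimap8 and Gimap9.

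Gimap7 had the largest change of the family. Its protein is a GTPase that in humans works as a dimer. It stood at 385 and 533 RPKM in TRAIL+ cells, against 98.5 and 164 RPKM in CD49b+ cells, so both TRAIL+ libraries were over both CD49b+ libraries. Means were 459 ± 105 RPKM for TRAIL+ and 131 ± 46.5 RPKM for CD49b+ (SD, n = 2 libraries each), a 3.50-fold difference. The log2 fold change was 1.82 ± 0.31 (SE), with a 95% interval of 1.05 to 2.59 and a limma adjusted p = 0.0225. These values rested on 1994 and 2566 reads in TRAIL+ cells and 530 and 821 reads in CD49b+ cells. Leaving out CD49b+ replicate 1 ended the call, with a log2 fold change of 1.46, and so did dropping the minimum RPKM (adjusted p = 0.0523). With 1 CD49b+ library left, the residual spread came from the TRAIL+ pair alone.

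Gimap3, a close relative of Gimap5 that acts in T-cell survival in mice, was the other member that rose. It stood at 839 and 886 RPKM in TRAIL+ cells, against 342 and 372 RPKM in CD49b+ cells, and replicates of each subset lay close together. The fold was 2.42 and the log2 fold change 1.27 ± 0.19 (SE, 95% interval 0.79 to 1.75, limma adjusted p = 0.0155). It no longer passed when CD49b+ replicate 1 or CD49b+ replicate 2 was left out, with log2 fold changes of 1.21 and 1.33. With 1 CD49b+ library left, the residual spread came from the TRAIL+ pair alone.

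Gimap5, the member whose loss costs mice their NK cells, differed far less. It had 103 and 98.1 RPKM in TRAIL+ cells and 89.6 and 84.9 RPKM in CD49b+ cells, and the groups did not overlap. Its log2 fold change, 0.20 ± 0.15 (SE) with a 95% interval of -0.18 to 0.58, did not pass (limma adjusted p = 0.593). Gimap3 exceeded Gimap5 by ratios of 8.16 and 9.03 in the TRAIL+ libraries and 3.82 and 4.38 in the CD49b+ libraries. This pair is the most alike in the family, with 90.7% identical bases over aligned coding sequence. Of the stretches of 36 bases in its transcripts, Gimap3 shared 13.7% with Gimap5 and Gimap5 shared 15.1% with Gimap3, whereas the other 27 of 28 pairs shared 0. Both levels are uncertain, because no source used here gives how reads that match both were counted. The longest identical coding run, shown because a read inside it matches both genes, is 140 bases long (GENCODE M21, chromosome 6) and covers coding bases 175 to 314 of Gimap3 and 187 to 326 of Gimap5:
Gimap3 and Gimap5: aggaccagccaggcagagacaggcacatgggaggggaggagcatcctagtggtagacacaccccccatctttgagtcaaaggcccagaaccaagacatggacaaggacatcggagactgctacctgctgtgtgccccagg

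Gimap4 was the most abundant member in both subsets. It is linked to T-cell death, which it hastens in mice. It stood at 1281 and 1580.4 RPKM in TRAIL+ cells, against 687 and 795 RPKM in CD49b+ cells. The difference was 1.93-fold, a log2 fold change of 0.94 ± 0.24 (SE, 95% interval 0.34 to 1.55), with a limma adjusted p = 0.0818. With limma voom on the whole reads worked out from the RPKM values the threshold was passed (adjusted p = 0.0362), as it was with quantile normalization (adjusted p = 0.0195). It was not passed with equal medians (0.156) or no minimum RPKM (0.162). Nor was it without CD49b+ replicate 1 or 2, with log2 fold changes of 0.84 and 1.05.

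Gimap6, which binds an ATG8-family protein and takes part in autophagy, behaved much like Gimap4. It had 804 and 854 RPKM in TRAIL+ cells, against 447 and 482 RPKM in CD49b+ cells, a 1.78-fold difference with groups well apart. Its log2 fold change was 0.83 ± 0.20 (SE, 95% interval 0.34 to 1.32, limma adjusted p = 0.0653), and it passed with voom on recovered reads (adjusted p = 0.0309). It did not pass with equal medians (0.126) or no minimum RPKM (0.112). Nor did it without CD49b+ replicate 1 or 2, with log2 fold changes of 0.78 and 0.89.

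Gimap1 is needed for mature B and T cells in mice. It had 303 and 386 RPKM in TRAIL+ cells, against 232 and 274 RPKM in CD49b+ cells. Its difference, 0.44 ± 0.21 on the log2 scale (SE, 95% interval -0.09 to 0.96), did not pass (limma adjusted p = 0.349). Its gene overlaps the antisense gene Gimap1os in GENCODE M21. No row was matched to Gimap1os, so its level is not given. No source used here gives the use of strand, so reads from the pair cannot be told apart.

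Gimap8 and Gimap9 had overlapping groups. Gimap8, which is unusual in carrying several GTPase domains, had 157 and 120.4 RPKM in TRAIL+ cells and 142 and 122 RPKM in CD49b+ cells. Its log2 fold change was 0.06 ± 0.20 (SE, 95% interval -0.45 to 0.56, limma adjusted p = 0.931), and was -0.13 without TRAIL+ replicate 1. Gimap9 had 117 and 142 RPKM in TRAIL+ cells and 136 and 156 RPKM in CD49b+ cells, the only member with a negative log2 fold change (-0.18 ± 0.18, SE, 95% interval -0.64 to 0.28, limma adjusted p = 0.718).

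The order of levels shifted with these changes. In TRAIL+ cells Gimap4 was followed by Gimap3 and Gimap6, which overlapped, then by Gimap7 and Gimap1, which overlapped, by Gimap8 and Gimap9, which overlapped, and by Gimap5. In CD49b+ cells Gimap4 was followed by Gimap6, Gimap3 and Gimap1, each apart from its neighbour. Next came Gimap9, Gimap8 and Gimap7, whose neighbours in this order overlapped, with Gimap5 again lowest. Gimap7 thus stood at 3.31 and 3.76 times the level of Gimap9 in the TRAIL+ libraries, and at 0.722 and 1.05 times that level in the CD49b+ libraries. The share of Gimap4 in the family's RPKM was 32.1% and 34.4% in TRAIL+ cells and 31.6% and 32.4% in CD49b+ cells, and these overlapped. Together Gimap3, Gimap4, Gimap6 and Gimap7, grouped after their values were seen, made up 83.0% and 83.8% in TRAIL+ cells and 72.4% and 74.0% in CD49b+ cells.

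**Figure D2:**
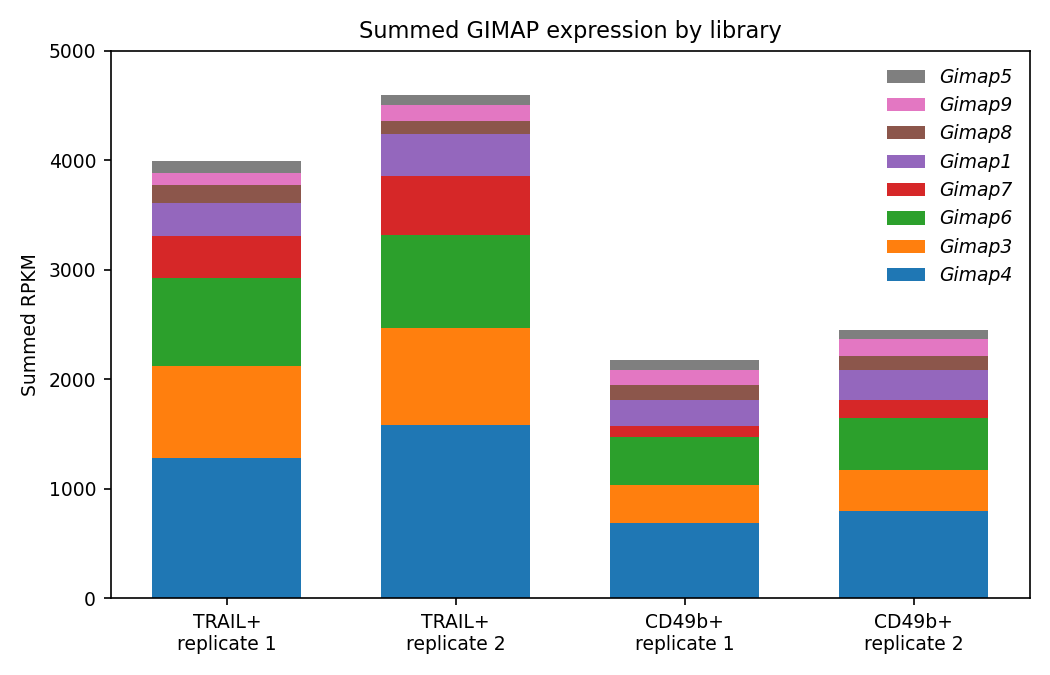
RPKM of the 8 GIMAP genes stacked to their sum, with a bar per library and TRAIL+ libraries on the left. The TRAIL+ bars reach 3989 and 4599, against 2176 and 2449 for CD49b+, and the bands of Gimap5, Gimap8 and Gimap9 keep a similar height.

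The order of genes was read from RefSeq (GRCm38.p6), since the authors used mm9. The cluster on chromosome 6 runs Gimap8, Gimap9, Gimap4, Gimap6, Gimap7, Gimap1, Gimap5 and Gimap3. Gimap6 and Gimap3 lie on the minus strand and the rest on the plus strand. The called genes were therefore not next to each other: Gimap1 and Gimap5, which did not pass, lie between Gimap7 and Gimap3. Of the 5 protein-coding genes on each side, 5 of 10 were tested. Of these, 2 rose and 0 fell, against 4.76% and 3.86% of all tested genes. Both that rose lie on the Gimap3 side, Tmem176b next to Gimap3 and Tmem176a next to Tmem176b, and encode related membrane proteins. Tmem176b stood at 70.7 and 99.3 RPKM in TRAIL+ cells, against 4.14 and 8.17 RPKM in CD49b+ cells (log2 fold change 3.63 ± 0.33, SE, limma adjusted p = 0.00310). Tmem176a stood at 62.1 and 83.9 RPKM in TRAIL+ cells, against 4.40 and 9.93 RPKM in CD49b+ cells (log2 fold change 3.25 ± 0.37, limma adjusted p = 0.00599). The tested genes on the Gimap8 side, Zfp775, Repin1 and Lrrc61, named after their values were seen, had log2 fold changes of -0.28, -0.17 and -0.23 and did not pass.

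**Figure D3:**
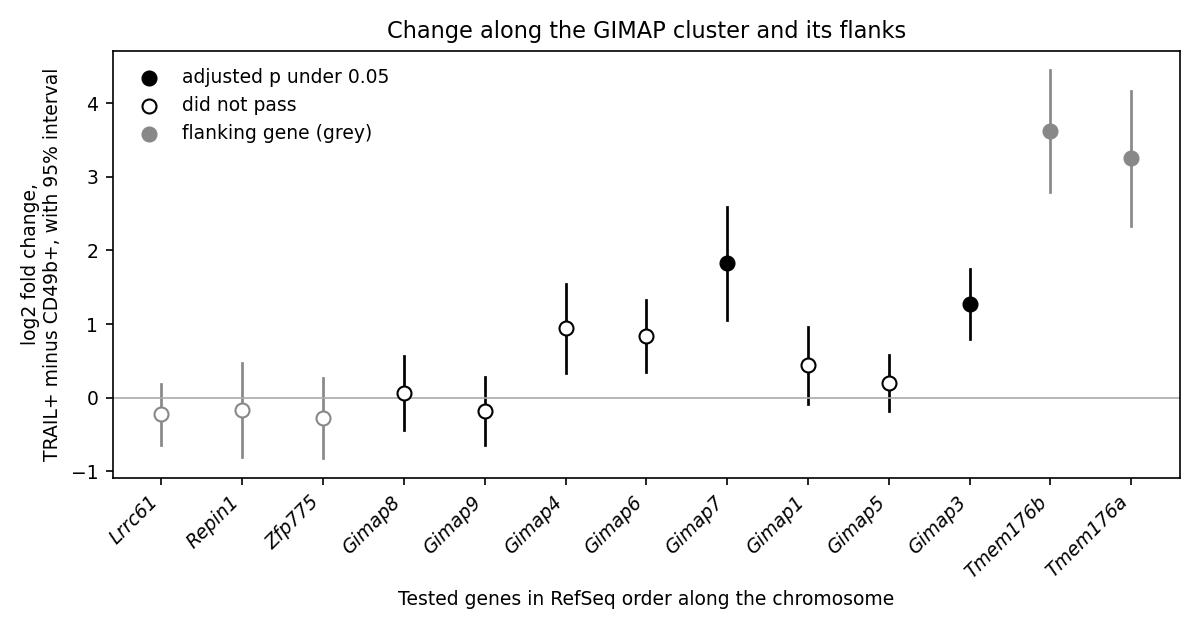
Log2 fold change (TRAIL+ minus CD49b+, log2(RPKM + 1) scale) with its 95% limma interval for the tested genes of the GIMAP cluster (black) and its flanks (grey), in RefSeq order. Filled points passed an adjusted p of 0.05; these are Gimap7, Gimap3, Tmem176b and Tmem176a, with unfilled points between the first pair.

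The 250 bases before the start site, from RefSeq (GRCm38.p6), are shown for the members that rose and for Gimap5, the close relative of Gimap3 that did not pass. Capitals mark matches on either strand to the core letters of motifs bound by RUNX (TGTGGT), ETS (AGGAAG) and KLF (CCNCNCCC) factors, and no marked stretches overlap in these sequences. The stretches are chr6:48718371-48718620 (plus strand), chr6:48770852-48771101 (minus strand) and chr6:48745947-48746196 (plus strand):
Gimap7: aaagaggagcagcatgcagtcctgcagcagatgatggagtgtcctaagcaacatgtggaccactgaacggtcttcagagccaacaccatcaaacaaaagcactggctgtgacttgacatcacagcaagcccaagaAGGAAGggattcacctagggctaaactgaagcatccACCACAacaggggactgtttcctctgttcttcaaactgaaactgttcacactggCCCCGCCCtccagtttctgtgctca
Gimap3: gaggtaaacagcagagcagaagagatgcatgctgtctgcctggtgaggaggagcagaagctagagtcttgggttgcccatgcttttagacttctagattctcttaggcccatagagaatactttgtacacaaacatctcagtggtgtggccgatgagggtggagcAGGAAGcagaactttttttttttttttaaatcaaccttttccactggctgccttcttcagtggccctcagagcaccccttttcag
Gimap5: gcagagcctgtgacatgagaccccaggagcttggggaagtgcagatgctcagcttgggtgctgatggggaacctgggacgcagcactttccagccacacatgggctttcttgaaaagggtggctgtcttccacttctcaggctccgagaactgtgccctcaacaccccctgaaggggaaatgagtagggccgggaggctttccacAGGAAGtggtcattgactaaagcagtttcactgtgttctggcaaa

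The AGGAAG letters occurred before 7 of 8 members, or in 7 of 9 member promoters, against 29.5% of 32851 promoters of the same length. They were found in all of the sequences shown. TGTGGT occurred in 3 of 8 members (3 of 9 promoters), Gimap1, Gimap4 and Gimap7, against 14.0% of promoters. CCNCNCCC occurred in 4 of 8 (5 of 9 promoters), against 45.9%. The T-box letters GGTGTGA were found for Gimap8 alone among the members, in 2 of 9 promoters whose windows overlap, against 3.33% of promoters. TTANGTAA for NFIL3 (2.06% of promoters), AGATAA for GATA (9.99%) and CTTTGAA for TCF factors (4.46%) were not found in these windows. A match describes letters only. No motif searched was present for both Gimap3 and Gimap7 and missing for all other members. TATAAA was found in 0 of the 9 member promoters.

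Lists of genes linked to GIMAP functions were read beside the family. GIMAP proteins have been tied to BCL2-family proteins. Of 15 tested genes of that family 3 rose, 2 fell and 10 did not pass, with a median log2 fold change of 0.06. Over all tested genes 4.76% rose and 3.86% fell. Bcl2a1d, a survival gene with near-identical copies that can share reads, stood at 27.7 and 32.8 RPKM in TRAIL+ cells, against 6.81 and 4.78 RPKM in CD49b+ cells (log2 fold change 2.21 ± 0.23, limma adjusted p = 0.00445). Its copy Bcl2a1b was also among the 3 that rose (log2 fold change 1.84). The part of shared reads in both calls was not tested. Bik, a death-promoting member, also rose, at 4.40 and 3.62 RPKM in TRAIL+ cells, against 0.498 and 0.268 RPKM in CD49b+ cells. Its values rested on few reads, 17 and 13 in TRAIL+ cells and 2 and 1 in CD49b+ cells. The death-promoting BH3 genes Pmaip1 and Bbc3 fell, by 1.90 and 1.11 on the log2 scale. Pmaip1 did not pass without CD49b+ replicate 2 (adjusted p = 0.0548), and Bbc3 did not without CD49b+ replicate 1 or 2 (adjusted p = 0.191 and 0.217). Their log2 fold changes were then -1.76 for Pmaip1 and -1.14 and -1.09 for Bbc3. Bcl2 itself, named after its values were seen, had 95.2 and 70.6 RPKM in TRAIL+ cells, against 48.6 and 41.9 RPKM in CD49b+ cells, and missed the threshold (limma adjusted p = 0.0711).

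Genes of the ATG8 system, the partners of Gimap6 in autophagy, did not pass. Of 14 tested, 0 passed in limma on log2(RPKM + 1), against 8.62% of all tested genes, and 0 with voom. By either, 2 were lower at an unadjusted p under 0.05. Of all 10047 tested genes, 889 were in limma on log2(RPKM + 1) and 886 with voom. The median log2 fold change was 0.06. Gabarapl2, which encodes a human GIMAP6 partner and was named after its values were seen, had 29.8 and 48.7 RPKM in TRAIL+ cells and 39.9 and 41.3 RPKM in CD49b+ cells. Genes of GSK3, lysosome and mTOR signalling have been linked to Gimap5. Of 9 tested, 1 fell and 0 rose, against 3.86% and 4.76% of all tested genes. That gene was Lamp1, a lysosomal membrane protein, at 68.3 and 74.8 RPKM in TRAIL+ cells, against 125 and 124 RPKM in CD49b+ cells (log2 fold change -0.80 ± 0.15, limma adjusted p = 0.0356). It did not hold without CD49b+ replicate 1 or 2 (adjusted p = 0.431 and 0.399), with equal medians (0.0552) or with no trend in the prior (0.0570), although its log2 fold change stayed between -0.82 and -0.79.

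Another set of immune GTPases, the interferon-inducible GBP and IRG families and their relatives, also moved. Of 18 rows tested (2 of them for Gvin1), 7 rose, 0 fell and 11 did not pass, with a median log2 fold change of 0.79. The shares over all tested genes were 4.76% higher and 3.86% lower. Tgtp1 stood at 20.7 and 21.8 RPKM in TRAIL+ cells, against 2.27 and 2.17 RPKM in CD49b+ cells (log2 fold change 2.79 ± 0.19, limma adjusted p = 0.00120), and Gbp6 at 15.6 and 13.9 RPKM in TRAIL+ cells, against 4.91 and 3.64 RPKM in CD49b+ cells. Both have close copies that can share reads. Fewer of these rows passed without CD49b+ replicate 1 or 2, as did fewer of all tested genes. The Gbp6 call was lost without CD49b+ replicate 2, with a log2 fold change of 1.41. Its log2 fold change was 1.76 without CD49b+ replicate 1.

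Genes of lymphocyte quiescence and recirculation, which naive lymphocytes express together with GIMAP genes, were called lower more often than higher. Of 17 tested, 8 fell, 1 rose and 8 did not pass, with a median log2 fold change of -0.86. Of all tested genes, 3.86% fell and 4.76% rose. S1pr1, the receptor for exit from tissue, stood at 1.22 and 0.872 RPKM in TRAIL+ cells, against 36.7 and 53.0 RPKM in CD49b+ cells. Il7r, the receptor chain for the survival cytokine IL-7, was the member that rose, at 25.6 and 32.6 RPKM in TRAIL+ cells, against 9.10 and 13.9 RPKM in CD49b+ cells (limma adjusted p = 0.0392). That call did not hold without CD49b+ replicate 1 or 2 (adjusted p = 0.256 and 0.0553), with no minimum RPKM (0.0755) or with libraries scaled to equal medians (0.0511). Its log2 fold changes were then 1.00, 1.56, 1.28 and 1.26, against 1.28 with all libraries and the minimum kept. Fewer genes of the list fell without CD49b+ replicate 1 or 2, as did fewer of all tested genes. Without TRAIL+ replicate 1, 11 fell and 1 rose, where 763 of all genes fell, against 388 with all libraries.

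**Figure D4:**
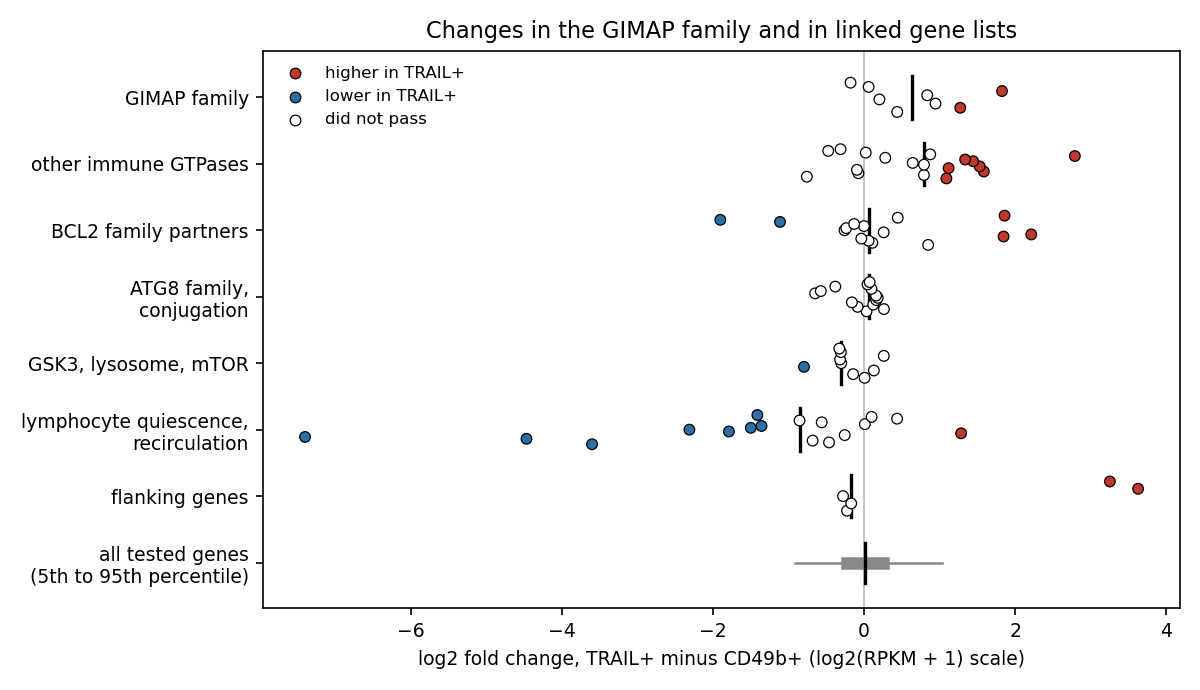
Log2 fold change (TRAIL+ minus CD49b+, log2(RPKM + 1) scale) of each tested gene in the GIMAP family and 6 lists, with black bars at list medians and, in the lowest row, the 5th to 95th percentile and the middle 50% of all tested genes. Red points were higher and blue points lower in TRAIL+ cells at an adjusted p of 0.05; the GIMAP median is 0.64, against -0.86 for quiescence genes.

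GIMAP genes are also expressed by T cells and endothelial cells, so markers of other cell types were examined. Of 10 T-cell markers 7 were tested, 6 rose and 1 fell, against 4.76% and 3.86% of all tested genes. The summed RPKM of the 10 was 93.9 and 152 in TRAIL+ cells, against 41.5 and 45.4 in CD49b+ cells. Cd3d, the most abundant, stood at 30.0 and 59.9 RPKM in TRAIL+ cells, against 10.4 and 10.1 RPKM in CD49b+ cells, although the sort took TCR beta-negative cells. Its call (log2 fold change 1.95, limma adjusted p = 0.0240) was lost with no minimum RPKM (limma adjusted p = 0.0557). It was also lost without CD49b+ replicate 1 or 2, with log2 fold changes of 1.97 and 1.93. Fewer of the 7 markers passed without CD49b+ replicate 1 or 2, as did fewer of all tested genes. The others that rose were Cd3e, Cd4, Cd8a, Trat1 and Bcl11b. Cd8a, named after its values were seen, stood at 10.6 and 17.9 RPKM in TRAIL+ cells, against 0.226 and 0 RPKM in CD49b+ cells. Cd28, which fell, stood at 7.50 and 10.2 RPKM in TRAIL+ cells, against 22.9 and 29.0 RPKM in CD49b+ cells. Its call was lost without CD49b+ replicate 1 or 2, with log2 fold changes of -1.62 and -1.29. Cd5, Cd6 and Cd8b1, named after their values were seen, were not tested and stood at 1.16 RPKM or less in every library. The part of these transcripts in the GIMAP differences was not tested. Of 10 endothelial markers, 5 were at 0 in every library and 1, Pecam1, which leukocytes also express, was tested. It had 52.7 and 43.0 RPKM in TRAIL+ cells and 43.7 and 41.4 RPKM in CD49b+ cells, with no call (limma adjusted p = 0.739).

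Markers of B cells, Kupffer cells and monocytes, hepatocytes, neutrophils and erythroid cells or platelets gave 0 calls in limma and 0 with voom. In limma, 1 of 4 tested B-cell, 1 of 5 Kupffer-cell and 1 of 3 hepatocyte markers were higher at an unadjusted p under 0.05. Of all 10047 tested genes, 1117 were. Kupffer-cell markers gave 2 calls higher in TRAIL+ cells without CD49b+ replicate 1, and 1 each with a pseudocount of 5, without TRAIL+ replicate 1 and without TRAIL+ replicate 2. A neutrophil marker was called higher without CD49b+ replicate 1. C1qa, a macrophage gene named after its values were seen, had 5.21 and 4.38 RPKM in TRAIL+ cells, against 1.31 and 0 RPKM in CD49b+ cells (log2 fold change 1.93, limma adjusted p = 0.0549). Clec4f, a Kupffer-cell gene named after its values were seen and not tested, had 0.918 and 1.32 RPKM in TRAIL+ cells, against 0.196 and 0 RPKM in CD49b+ cells. Log2 fold changes of the 5 tested Kupffer-cell markers ran from -0.61 to 1.93. Groups did not overlap for 1 marker higher and 1 lower in TRAIL+ cells, against 24.9% and 21.8% of all tested genes. The summed Kupffer-cell markers were 22.6 and 14.2 RPKM in TRAIL+ cells and 17.4 and 6.49 RPKM in CD49b+ cells, which overlapped, and their part in the GIMAP differences was not tested. The summed hepatocyte markers were 18.4 and 3.68 RPKM in TRAIL+ cells and 17.8 and 1.28 RPKM in CD49b+ cells, led by Alb, so replicate 1 of each subset was the higher. The most abundant marker of the other lists was Cd79b for B cells, Cd68 for Kupffer cells and monocytes, S100a9 for neutrophils and Alas2 for erythroid cells. Over the 4 libraries, 3786497 to 4232967 reads stood behind the values, and 530 reads, a counting error of 4.34%, was the fewest for any GIMAP gene.

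The tested genes whose pattern over the 4 libraries lay closest to that of the summed family, judged by Euclidean distance between centred log2(RPKM + 1) values, were Rab8b, Rbm38, Ergic1, Jrk and Ctsb. Their distances were 0.0426 to 0.0533, against 0.0907 for Gimap4 and 0.111 for Gimap6, which make up part of the sum. Rab8b, a small GTPase of vesicle traffic, stood at 145 and 170.5 RPKM in TRAIL+ cells, against 76.9 and 88.4 RPKM in CD49b+ cells. With 4 libraries such likeness is a description only.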

How the data were processed

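RNA-seq of polyA RNA from sorted liver NK cells was deposited by the authors as RPKM in 1 file per library, as named in the headers. TopHat 1.4.1 and build mm9 come from the submitters' processing notes. How reads were counted, on which annotation and with what use of strand is not given in the sources used here. Groups came from the sample titles. Rows were named through RefSeq (GRCm38.p6): 20661 of 21025 by accession, 191 by symbol, 65 by synonym, and 108 under their deposited name.

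The 10047 genes that reached 1 RPKM in 2 or more of 4 libraries were fitted by limma 3.58.1 (R 4.3.3) as log2(RPKM + 1) values (trended prior, 2 residual degrees of freedom), coded TRAIL+ minus CD49b+, with Benjamini-Hochberg adjustment over all of them. This scale understates the change of low genes. Folds are ratios of mean RPKM. An exact permutation test of 2 against 2 libraries cannot go below p = 0.333 and was not used. Whole reads were worked out from the RPKM steps (relative tolerance 1e-06) for 13679 of 13681 rows above 0, and gave 3786497 to 4232967 reads per library.

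The members and lists were chosen with earlier results of these data known. The genes named by rule were all members, the gate genes, of each list up to 2 called genes a direction, the most abundant marker of each other cell type and the 5 genes nearest in pattern. A gene that this rule names in the quiescence list is not reported here. Alternatives covered pseudocounts of 0.1 and 5, other RPKM minimums, scalings, voom, no trend, each library left out and a replicate block. A fit with a library left out has 1 residual degree of freedom. Its residual spread comes from the other group alone. A call lost there does not show that a difference rests on the library left out. Replicates differed by more than sampling noise (chi-square per gene 27.4 in TRAIL+ and 8.25 in CD49b+ cells).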

Additional observations from a re-analysis of the deposited data

How the results depend on the processing

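The summed RPKM and the median change of the family kept their direction in all alternatives run, with medians of 0.53 to 0.74, as did every member but Gimap8. Which members passed was less stable: 1 was called with no minimum RPKM, 4 with quantile normalization, 4 with libraries scaled to equal RPKM sums (chosen after seeing the data), 4 with voom, and 0 to 4 with a library left out. With quantile normalization, equal sums and voom, in this order, the log2 fold changes of Gimap4 were 0.89, 0.88 and 0.94 and those of Gimap6 0.75, 0.77 and 0.84, now past the threshold; that of Gimap7 with no minimum stayed at 1.82, no longer past it. Of all 13681 genes fitted with no minimum, 415 were called higher in TRAIL+ cells. Of 10047 genes, 491 were with quantile normalization, 395 with equal sums and 487 with voom, against 478 in limma on log2(RPKM + 1). Gimap8 was at -0.0047 with equal sums. Leaving out a library gave log2 fold changes of 1.21 to 1.33 for Gimap3, 0.79 to 1.10 for Gimap4, 0.78 to 0.89 for Gimap6, 1.46 to 2.19 for Gimap7 and -0.13 to 0.25 for Gimap8; adjusted p ran from 0.00612 to 0.411 for Gimap3 and from 0.00438 to 0.163 for Gimap7. Over all genes, 443 to 1540 were then called, 245 to 777 higher and 198 to 763 lower, against 866, 478 and 388 with all libraries. The cause was not tested.

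Samples share only a replicate number. Same-numbered libraries deviated together (r = 0.56 across 10047 genes). The replicate block gave 1882 calls, 1049 higher and 833 lower, and 4 members called, with Gimap4 at 0.94 (adjusted p = 0.00922) and Gimap6 at 0.83 (adjusted p = 0.00845). With this block 1 ATG8 gene was called lower, and 1 Kupffer-cell and 1 hepatocyte marker higher. With 2 libraries a group, calls near the threshold depend on single libraries, and depth limits low genes more than these members.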
